A study of Mus musculus with 14 samples.

Results

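Dentate granule cell markers are genes whose RNA is concentrated in the granule neurons of the dentate gyrus. They were chosen as the rows of the count table for 10 named genes: *Prox1*, *C1ql2*, *Dsp*, *Calb1*, *Pdzd2*, *Tdo2*, *Plk5*, *Lct*, *Npnt* and *Sipa1l2*. Of these, 9 were among the 7756 genes of the table and all 9 passed the count filter that left 7338 genes for testing; *Calb1* was not analysed here. The study asked how intermittent hypoxia (IH), a model of obstructive sleep apnea, and sustained hypoxia (SH) change the hippocampus. RNA of the hippocampus was sequenced from wild-type male C57BL/6J mice, aged 8 weeks when the exposure began, after 28 days under their oxygen condition. The control group (n = 4 libraries) breathed 21% oxygen. The IH group (n = 5) breathed oxygen that alternated between 10% and 21% in cycles of 2 min for 8 h a day, and the SH group (n = 5) breathed 10% oxygen for 8 h a day. The methods describe behavioral tests with a foot shock before the tissue was taken, and do not say whether the mice of the sequenced control libraries took them. According to the study's methods the control libraries came from a preliminary experiment, so the experiment and the oxygen group cannot be told apart in either comparison with the controls.

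Granule cells are the principal neurons of the dentate gyrus. They receive the perforant path from the entorhinal cortex and send their axons, the mossy fibers, to hilar mossy cells and to CA3 pyramidal cells. They are among the few neurons that continue to be born in the adult rodent brain, and the transcription factor PROX1 marks them from the progenitor stage on. The markers with known functions fall into a transcription factor (*Prox1*), proteins secreted into the synaptic cleft or the matrix (*C1ql2*, *Npnt*), scaffold, junction and signaling proteins (*Dsp*, *Pdzd2*, *Sipa1l2*, *Plk5*) and enzymes (*Lct*, *Tdo2*). In RNA of a whole hippocampus, fewer granule cells and less RNA per granule cell cannot be told apart.

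Values are normalized counts, the reads of a gene divided by the library's size relative to the mean of all libraries, after scaling by the trimmed mean of M-values (TMM). The libraries held between 7203659 and 11777101 counts in the table, and the 9 markers together took between 0.0867% and 0.186% of them. Per kilobase of transcript, the mean level over the 14 libraries was highest for *C1ql2* at 794 normalized counts, followed by *Prox1* at 346, *Sipa1l2* at 248 and *Plk5* at 168. It was 148 for *Lct*, 144 for *Dsp*, 144 for *Pdzd2*, 139 for *Npnt* and 35.5 for *Tdo2*. The levels of *Lct*, *Dsp*, *Pdzd2* and *Npnt* per kilobase lay within 10 normalized counts of each other, less than their spread over the libraries (coefficients of variation of 56.3%, 48.2%, 25.5% and 21.5%). All 9 were detected in every library, the lowest value being 84.7 for *Tdo2*. In 3 libraries, IH replicate 5 and SH replicates 4 and 5, the sum of the markers was above that of the other 11, and values without them are given after the comparisons.

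Promoters are shown for 4 markers that mark the range of the results: *Prox1*, which passed the test in both comparisons with the controls; *C1ql2*, whose group means were close; and *Dsp* and *Lct*, whose levels varied most between libraries. Each sequence is the 250 bases before the start of the canonical transcript in GRCm39, read 5′ to 3′ on the strand of the gene: chr1:189903209-189903458 on the minus strand, chr1:120268050-120268299 on the plus strand, chr13:38334980-38335229 on the plus strand and chr1:128256056-128256305 on the minus strand. Capitals mark E-boxes (CANNTG, the same on both strands), the letters bound by basic helix-loop-helix factors such as NEUROD1.
Prox1: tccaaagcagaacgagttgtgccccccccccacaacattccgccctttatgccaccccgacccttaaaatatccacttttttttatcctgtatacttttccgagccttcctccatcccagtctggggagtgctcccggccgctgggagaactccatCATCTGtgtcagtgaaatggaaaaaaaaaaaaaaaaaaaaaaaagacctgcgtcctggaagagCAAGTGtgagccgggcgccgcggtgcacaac
C1ql2: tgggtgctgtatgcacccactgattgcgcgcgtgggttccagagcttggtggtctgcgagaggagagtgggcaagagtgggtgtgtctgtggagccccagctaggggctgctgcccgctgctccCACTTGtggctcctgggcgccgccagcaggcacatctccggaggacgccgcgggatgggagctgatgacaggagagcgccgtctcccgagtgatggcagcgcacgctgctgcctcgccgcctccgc
Dsp: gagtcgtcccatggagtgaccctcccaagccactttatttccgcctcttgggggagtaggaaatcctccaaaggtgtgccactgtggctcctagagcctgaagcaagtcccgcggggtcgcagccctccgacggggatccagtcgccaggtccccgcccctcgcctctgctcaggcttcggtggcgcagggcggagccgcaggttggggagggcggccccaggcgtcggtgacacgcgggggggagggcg
Lct: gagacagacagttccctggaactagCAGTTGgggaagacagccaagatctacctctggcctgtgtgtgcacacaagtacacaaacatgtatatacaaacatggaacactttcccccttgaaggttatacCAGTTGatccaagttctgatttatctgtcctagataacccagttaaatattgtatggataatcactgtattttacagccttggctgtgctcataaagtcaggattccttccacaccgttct
An E-box was present in the promoters of 7 of the 9 markers and in 64.8% of the 21751 promoters searched. The core of the hypoxia response element has 2 forms. ACGTG, on either strand, was in none of the 9 promoters and in 17% of all promoters, and GCGTG, on either strand, was in 3 of the 9 (*C1ql2*, *Dsp* and *Sipa1l2*) and in 31.2% of all. The core of the cAMP response element (TGACG on either strand) was likewise in none of the 9 and in 18% of all promoters, and the GC box (GGGCGG on either strand) was in 3 of the 9 and in 36.3% of all. These are matches of letters within the windows, and they say nothing on the factors themselves.

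*Prox1*, on chromosome 1 (GRCm39, chr1:189850232-189904637, minus strand, 5 exons in the canonical transcript), encodes the homeobox factor that sets and keeps granule cell identity against that of CA3. Its normalized count was 1838, 1845, 2122 and 2010 in control replicates 1 to 4. In IH replicates 1 to 5 it was 2607, 3097, 2812, 2976 and 3912, and in SH replicates 1 to 5 it was 2556, 3101, 2697, 4310 and 4431. All 10 hypoxia libraries were above all 4 control libraries, and the IH and SH libraries overlapped. The log2 fold change was 0.66 (SE 0.16) in the IH vs. control comparison, a 1.58-fold rise (edgeR quasi-likelihood test, adjusted p = 0.0169). In the SH vs. control comparison it was 0.81 (SE 0.16), a 1.75-fold rise (edgeR, adjusted p = 0.00387). Between IH and SH the log2 difference was -0.15 (SE 0.15, edgeR, adjusted p = 0.715). The exons of *Prox1* overlap *Prox1os*, which is transcribed from the opposite strand. The library kit marks the strand, but whether the counting used it is not given in the sources used here, so reads of the 2 genes may not be separated. Genes on the opposite strand also overlap the exons of *Dsp*, *Pdzd2*, *Tdo2* and *Npnt*.

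*C1ql2*, also on chromosome 1 (chr1:120268300-120270903, plus strand, 2 exons), encodes a secreted C1q-like protein of mossy fiber synapses. Its normalized count was 1549, 1584, 1519 and 1590 in the controls, 1553, 1589, 1518, 1742 and 1893 in IH, and 1388, 1280, 1533, 1822 and 1796 in SH, in the order of the replicates. The controls lay within both hypoxia groups, which spread to both sides in SH and mostly upward in IH. The log2 fold change was 0.09 (SE 0.099, adjusted p = 0.563) for IH and 0.003 (SE 0.099, adjusted p = 0.987) for SH against the control group in edgeR. *C1ql2* has the highest GC content of the 9 transcripts (63.35%), and after removal of each library's trends with GC content and length its log2 fold change was 0.33 for IH and 0.34 for SH (edgeR, adjusted p = 0.0892 and 0.0727). *Npnt*, on chromosome 3 (chr3:132587506-132656257, minus strand), encodes nephronectin, a matrix protein that binds integrins. It ranged from 487 to 640 in the controls, from 613 to 827 in IH and from 533 to 966 in SH, and the groups overlapped. Its log2 fold changes of 0.35 (SE 0.17) for IH and 0.37 (SE 0.17) for SH did not pass the test (edgeR, adjusted p = 0.170 and 0.116), and the second passed without SH replicate 1 (0.47, adjusted p = 0.0443). It was 0.25 without SH replicate 5.

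*Sipa1l2*, on chromosome 8 (chr8:126144492-126296625, minus strand), encodes a Rap GTPase-activating protein of synapses. Its normalized count was 1550, 1460, 1499 and 1503 in the controls, 1944, 1924, 1713, 1838 and 2207 in IH, and 1685, 1530, 1706, 2083 and 2176 in SH. All IH libraries were above all control libraries, while SH replicate 2 lay within the controls. It rose by 0.36 on the log2 scale in IH (SE 0.098, edgeR, adjusted p = 0.0298) and by 0.29 in SH (SE 0.098, edgeR, adjusted p = 0.0481). *Pdzd2*, on chromosome 15 (chr15:12359797-12740193, minus strand), encodes a protein with many PDZ domains. Normalized counts of *Pdzd2* were 1167, 1156, 1240 and 1495 in the controls, 1812, 1724, 1218, 1962 and 2307 in IH, and 1655, 1440, 1442, 2343 and 2231 in SH. IH replicate 3 lay among the controls, and so did SH replicates 2 and 3, below control replicate 4. *Pdzd2* rose by 0.53 in SH (SE 0.18, edgeR, adjusted p = 0.0461), and its log2 fold change in IH was 0.51 (SE 0.18, edgeR, adjusted p = 0.0712), which passed without IH replicate 3 (0.63, adjusted p = 0.0219).

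*Dsp*, on chromosome 13 (chr13:38335230-38382553, plus strand, 24 exons), encodes desmoplakin, which ties intermediate filaments to desmosomes. The normalized counts were 568, 794, 1022 and 1254 in the controls, 1015, 1332, 1157, 1452 and 2720 in IH, and 1164, 1079, 957, 2439 and 2502 in SH. A 4.79-fold range separated the highest library from the lowest, and 3 libraries, IH replicate 5 and SH replicates 4 and 5, were far above the rest. Its log2 fold changes were 0.76 (SE 0.34) for IH and 0.84 (SE 0.35) for SH and did not pass the test (edgeR, adjusted p = 0.153 and 0.0930), and the first was 0.45 without IH replicate 5. *Lct*, on chromosome 1 (chr1:128212493-128256055, minus strand, 17 exons), encodes lactase, the enzyme that splits lactose in the gut. Its normalized count was 324, 639, 890 and 781 in the controls, 571, 811, 1133, 1006 and 1766 in IH, and 685, 402, 346, 1459 and 1987 in SH. Its range of 6.13-fold was the widest of the 9 markers, and in SH the same 2 replicates stood above all others while replicates 2 and 3 were below 3 of the 4 controls. Its log2 fold changes were 0.68 (SE 0.47) for IH and 0.57 (SE 0.47) for SH (edgeR, adjusted p = 0.334 and 0.408). The value for IH was 0.42 without IH replicate 5, and that for SH was 0.13 without SH replicate 5 and 0.34 without control replicate 1.

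*Plk5*, on chromosome 10 (chr10:80191943-80201323, plus strand), belongs to the polo-like kinase family and is expressed in neurons. Normalized counts of *Plk5* were 328, 410, 433 and 396 in the controls, 382, 519, 589, 432 and 686 in IH, and 288, 257, 243, 487 and 556 in SH. SH replicates 1, 2 and 3 were below every control and every IH library, whereas SH replicates 4 and 5 were above every control. The log2 fold change was 0.41 (SE 0.24) for IH and -0.10 (SE 0.24) for SH against the controls (edgeR, adjusted p = 0.243 and 0.802). Between IH and SH it was 0.51 (SE 0.22, edgeR, adjusted p = 0.268). *Tdo2*, on chromosome 3 (chr3:81864248-81883509, minus strand), encodes the dioxygenase that opens the kynurenine pathway of tryptophan breakdown. It had the lowest counts of the 9, between 87.4 and 166.6 in the controls, 104 and 137 in IH and 84.7 and 187 in SH, and the groups overlapped. Its log2 fold changes were 0.02 (SE 0.23) for IH and 0.31 (SE 0.23) for SH (edgeR, adjusted p = 0.955 and 0.350). With 1 library left out the value for SH became 0.19 (control replicate 1), 0.53 (control replicate 3) or 0.20 (SH replicate 4).

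**Figure D1:**
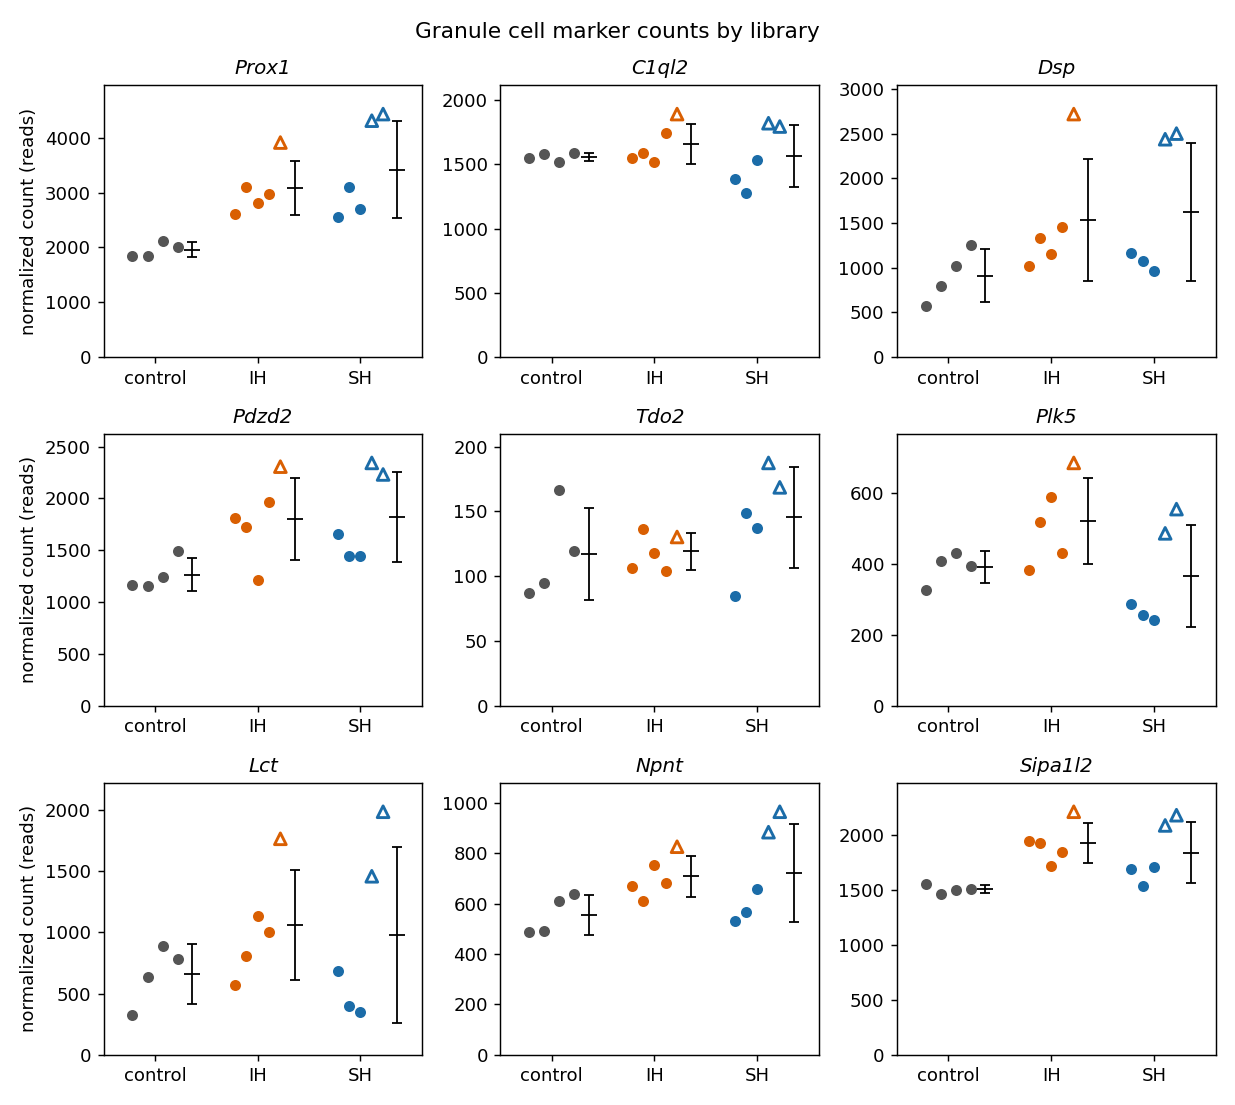
Normalized counts (reads, y axis from 0) of the 9 markers in each library of the control, IH and SH groups (x axis). Points are libraries in the order of the replicates, open triangles are IH replicate 5 and SH replicates 4 and 5, and the bar beside each group is the mean with SD. *Prox1* is above the controls in all 10 hypoxia libraries, and the triangles are far above the other points for *Dsp* and *Lct*.

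In the IH vs. control comparison, 2 of the 9 markers rose (*Prox1* and *Sipa1l2*), against 10.9% of all tested genes called in either direction, 6.08% called higher and 4.85% called lower. The same 2 markers had every IH library above every control library, which held for 7.66% of the tested genes (7.48% had every IH library below). The fold change was above 0 for 9 of 9 markers, with a median log2 fold change of 0.41 against -0.015 over all tested genes. The share of all genes called was 5.46% with GC content and length trends removed, where the same 2 markers were called. It was 5.56%, 5.26% and 7.08% without control replicates 1, 2 and 4, where at most 1 marker was called. DESeq2 also called *Pdzd2* (0.52, adjusted p = 0.0217). The rise of *Prox1* missed the threshold without control replicate 1 (0.63, adjusted p = 0.0536) or control replicate 2 (0.63, adjusted p = 0.0574). That of *Sipa1l2* missed it without any 1 of the 4 control libraries or of IH replicates 1, 2 and 5, with log2 fold changes between 0.30 and 0.37 and adjusted p between 0.0540 and 0.0822 (edgeR).

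In the SH vs. control comparison, 3 of the 9 rose (*Prox1*, *Pdzd2* and *Sipa1l2*), against 20.6% of all tested genes called in either direction, 10.2% called higher and 10.5% called lower. Only *Prox1* had every SH library above every control library, against 8.76% of the tested genes (10.6% had every SH library below). The fold change was above 0 for 8 of 9, with a median of 0.37 against 0.0035 over all tested genes. Without the 3 libraries named above it was above 0 for 6 of 9, with a median of 0.074 against 0.018 over all tested genes, given as a description with no test. The share of all genes called was 6.43% with GC content and length trends removed, where the same 3 markers were called, and 12.4% and 13.3% without control replicates 1 and 2, where 1 marker was called in each. Both comparisons use the same 4 control libraries. The call of *Prox1* held without any single library (edgeR, adjusted p at most 0.0157 over these fits), whereas *Pdzd2* missed the threshold without control replicates 1, 2 or 3, IH replicates 1, 2 or 4, or SH replicates 4 or 5 (0.42 to 0.54, adjusted p between 0.0519 and 0.117). *Sipa1l2* missed it without each of these libraries, control replicate 4 or SH replicate 3 (0.22 to 0.31, adjusted p between 0.0507 and 0.115, edgeR). It also missed it with edgeR's filterByExpr (adjusted p = 0.0524) and in the fit of only the 2 groups (adjusted p = 0.0610).

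In the IH vs. SH comparison, none of the 9 markers was called by edgeR or by DESeq2, against 2.37% of all tested genes in edgeR, 1.47% higher and 0.899% lower in IH. At an unadjusted p under 0.05 the count in edgeR was 1 of 9 (*Plk5*), against 15.8% of all tested genes. The groups overlapped for all 9, while 2.63% of the tested genes had every IH library above every SH library and 1.83% had every one below. The log2 difference was above 0 for 4 of 9, with a median of -0.013 against -0.0039 over all tested genes. The table was filtered by the authors for genes that differed from the control group, so all shares hold within that selection, which the markers passed too. Nothing in the labels or methods states that each library is a separate mouse, so the p-values measure the spread between these libraries.

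The 3 libraries named above stood apart within their groups. The 9 markers summed to 7897, 8472, 9502 and 9788 normalized counts in control replicates 1 to 4. They summed to 10659, 11744, 11012, 12193 and 16448 in IH replicates 1 to 5 and to 10039, 9803, 9723, 16015 and 16813 in SH replicates 1 to 5. The 3 high libraries belonged to both hypoxia groups, and the 11 others ranged from 7897 to 12193. Within SH, replicates 4 and 5 were above replicates 1, 2 and 3 for 9 of 9 markers, a pattern shown by 16.0% of all tested genes. Within IH, replicate 5 was highest for 8 of 9 markers, the exception being *Tdo2*, against 23.8% of all tested genes. Since these libraries were picked by the sum of the markers, these shares are descriptions.

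The markers differed in how far they rose in the 3 libraries. The mean of the 3 over the mean of the other 11 was 2.52-fold for *Lct*, 2.38-fold for *Dsp* and 1.68-fold for *Prox1*. It was 1.55-fold for *Pdzd2*, 1.48-fold for *Plk5*, 1.46-fold for *Npnt*, 1.37-fold for *Tdo2*, 1.29-fold for *Sipa1l2* and 1.20-fold for *C1ql2*. *C1ql2*, which had the highest level per kilobase, thus had the smallest ratio. Without the 3 libraries, a choice made after the values were seen, the log2 fold change of *Prox1* was 0.56 in IH and 0.51 in SH, and that of *Sipa1l2* was 0.30 in IH and 0.13 in SH. In SH vs. control it was 0.26 for *Pdzd2*, 0.23 for *Dsp*, 0.074 for *Npnt* and 0.070 for *Tdo2*, and it was -0.16 for *C1ql2*, -0.46 for *Lct* and -0.57 for *Plk5*. In IH vs. control it was above 0 for 8 of 9 markers, with a median of 0.30, and *Tdo2* was the exception. Between IH and SH it was above 0 for 8 of 9, with a median of 0.19, and was 0.87 for *Plk5*. The left-out libraries were picked by a sum that holds these genes, which also narrows the spread within groups, so these values are descriptions with no test. The SH libraries left were replicates 1, 2 and 3.

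**Figure D2:**
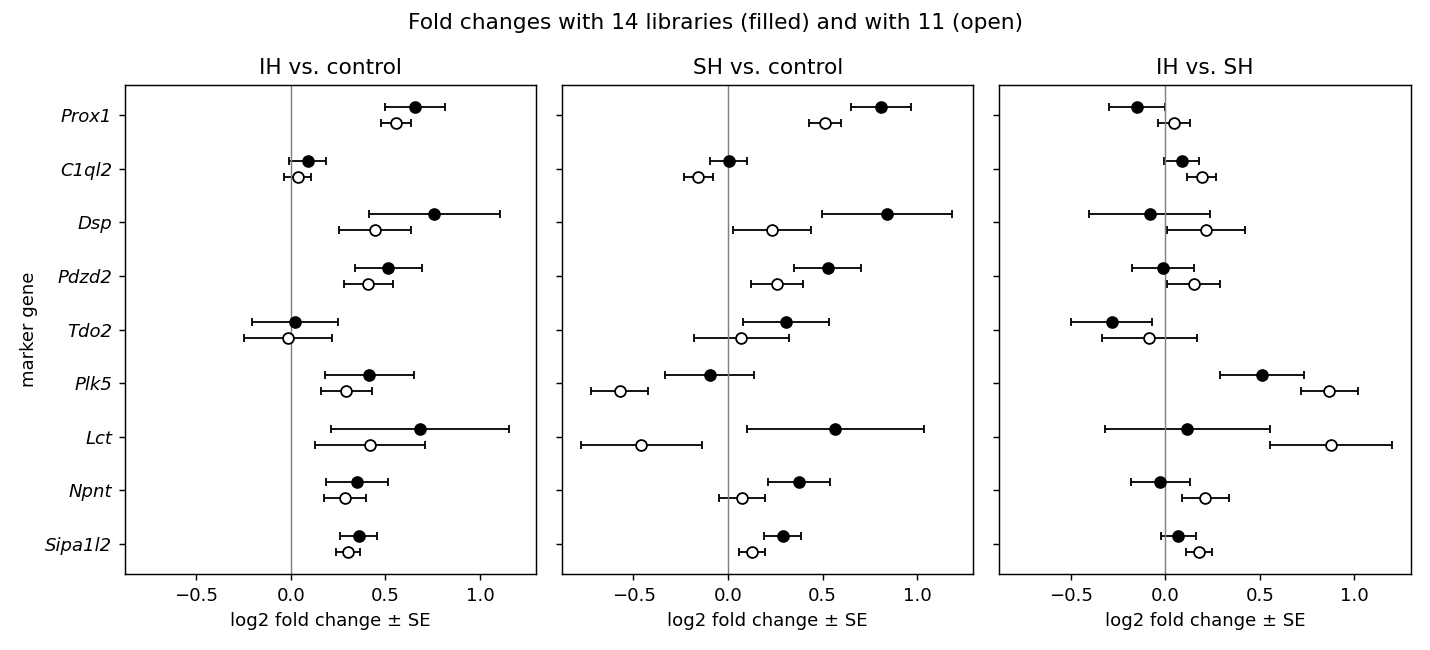
Log2 fold change with SE (x axis) of each marker (y axis) in the 3 comparisons, from all 14 libraries (filled) and without IH replicate 5 and SH replicates 4 and 5 (open). *Prox1* stays near 0.5 to 0.8 against the controls in both, and *Plk5* and *Lct* in SH move from near or above 0 to -0.57 and -0.46.

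The markers moved together across libraries. Over the 14 libraries, Pearson's r of the log2 normalized counts was above 0 for 36 of 36 pairs, from 0.285 (*C1ql2* with *Tdo2*) to 0.896 (*Pdzd2* with *Sipa1l2*), with a median of 0.678 against -0.0031 over pairs of all tested genes. The 3 high libraries form a cluster of their own, and over the 11 others the median was 0.343, with 31 of 36 pairs above 0 and a range from -0.200 to 0.817. Of all pairs of tested genes, 20.9% were above that median in the 11 libraries, and 2.44% were above 0.678 in the 14. With the group means removed the median was 0.768, and over the 10 IH and SH libraries it was 0.759. The pairs share libraries and the scaling, and are not independent of each other.

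The pair with the highest r over the 11 libraries was *Plk5* with *Lct*. Over the 14 libraries r was 0.864 (permutation p = 0.00012) and Spearman's coefficient was 0.886 (permutation p = 7e-05), both two-sided and not adjusted for the 36 pairs. It was 0.795 without the 2 libraries farthest from the median, 0.890 over the 10 IH and SH libraries and 0.817 over the 11. *Pdzd2* with *Sipa1l2* had an r of 0.896 (permutation p = 8e-05) and a Spearman coefficient of 0.842 (permutation p = 0.0004), with 0.842 without the 2 farthest libraries, 0.859 over the 10 and 0.758 over the 11. *Prox1* with *C1ql2* had an r of 0.497 (permutation p = 0.0712) and a Spearman coefficient of 0.424 (permutation p = 0.133) over the 14, with 0.234 without the 2 farthest libraries, 0.704 over the 10 and -0.200 over the 11. Within groups (group means removed) the r of *Prox1* with *C1ql2* was 0.787.

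**Figure D3:**
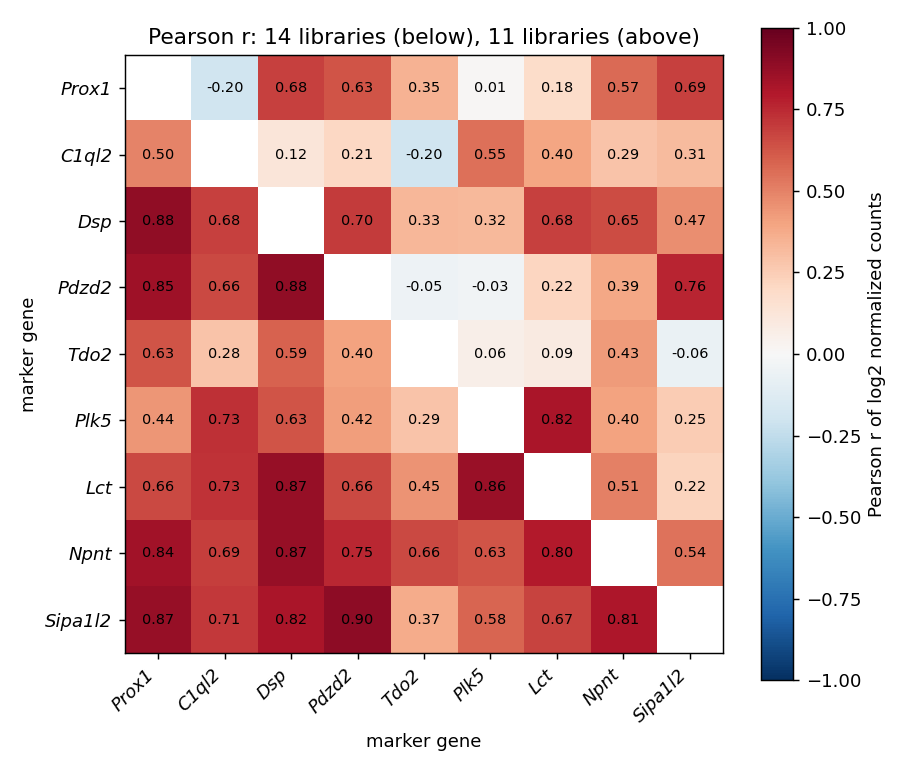
Pearson's r of log2 normalized counts for each pair of the 9 markers (both axes), below the diagonal over the 14 libraries and above it over the 11 without IH replicate 5 and SH replicates 4 and 5. All 36 values below the diagonal are above 0, and 31 of 36 above it are; *Plk5* with *Lct* is 0.86 and 0.82.

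The ratio of *Prox1* to *C1ql2*, a measure of unequal change among the markers chosen after the values were seen and given without a test, was higher in both hypoxia groups. Its log2 value was 0.32 ± 0.12 (SD, n = 4) in the controls, from 0.22 to 0.48. It was 0.88 ± 0.13 (SD, n = 5) in IH, from 0.75 to 1.05, and 1.10 ± 0.24 (SD, n = 5) in SH, from 0.81 to 1.30. The hypoxia libraries were above all controls, and IH and SH overlapped. *C1ql2* and *Prox1* differ in GC content (63.35% and 46.05%), and the slope of a library's log2 counts on GC content lay between 0.020 and 0.22 per 10 percentage points in the controls and between -0.17 and 0.052 in the hypoxia libraries. After removal of the GC content and length trends, the difference between the log2 fold changes of *Prox1* and *C1ql2* was 0.24 for IH and 0.38 for SH, against 0.57 and 0.80 without it, a change of more than 1.5 times with the direction kept. Both trends were removed together, and the transcripts also differ in length (8321 and 2011 bases), so GC content and length cannot be told apart here.

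Other dentate genes moved with the markers. A list of 13 other genes enriched in granule cells had 11 members in the tested table, and their mean standardized level correlated with that of the markers at r = 0.979 over the 14 libraries and 0.927 over the 11. Both lists were chosen with earlier results of these data known, so these correlations are descriptions and not independent support. Their summed normalized count was 15274 to 18488 in the controls, 19292 to 25876 in IH and 17077 to 25208 in SH, so every IH library was above every control and SH overlapped the controls. Against 6.08% of all tested genes called higher, 2 of the 11 rose in IH, *Trpc6*, a cation channel (0.71, SE 0.16, edgeR, adjusted p = 0.0122), and *Rfx3*, a ciliary transcription factor (0.42, SE 0.11, edgeR, adjusted p = 0.0205). In the study's own quantitative PCR of hippocampal RNA, *Trpc6* showed no significant effect of exposure. Its IH mean there was slightly below the control mean. In SH 2 rose, against 10.2% of all tested genes, *Rfx3* (0.40, SE 0.11, edgeR, adjusted p = 0.0177) and *Synpr*, which encodes the synaptic vesicle protein synaptoporin of mossy fibers (0.31, SE 0.073, edgeR, adjusted p = 0.00870). The median log2 fold change of the 11 was 0.30 for IH and 0.34 for SH. *Synpr* was also the member of this list least like the markers (r = 0.391, and 0.053 with group means removed), and IH replicate 5 was its lowest IH library.

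**Figure D4:**
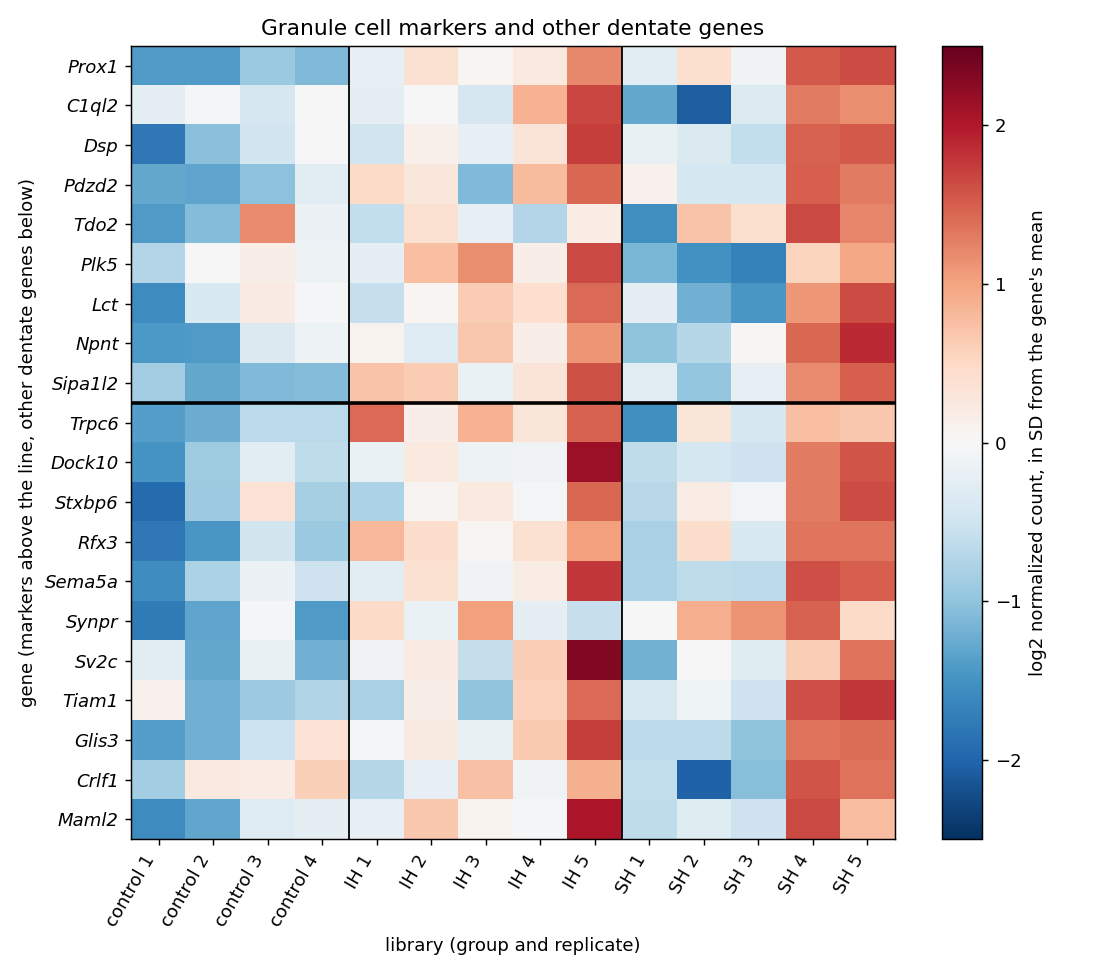
Log2 normalized count of the 9 markers (above the line) and 11 other dentate genes (below), in SD from each gene's mean over the 14 libraries (x axis). IH replicate 5 and SH replicates 4 and 5 are above the mean for nearly all genes, and the controls are mostly below it.

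By mean standardized level, the tested genes most like the markers over the 14 libraries were *Sema5a*, a semaphorin guidance protein (r = 0.987), *Dock10* (0.967), *Glis3*, a zinc finger factor (0.956), *Plekha2* (0.949), *Dgkh* (0.935), *Maml2* (0.933), *Net1* (0.931) and *Vwa3b* (0.931). *Sema5a*, *Dock10*, *Glis3* and *Maml2* are on the list of other dentate genes, which was chosen with earlier results of these data known. Over the 11 libraries *Sema5a* kept r = 0.957 and *Dock10* 0.925. The most opposed were *Ckmt1*, a mitochondrial creatine kinase (-0.962), *Nptxr*, a neuronal pentraxin receptor (-0.944), *Nnat* (-0.938) and *Myo16* (-0.930). With group means removed, *Adcy1* (0.961) and *Ippk* (0.956) joined the most alike. In all, 137 other tested genes had r above 0.8 and 174 below -0.8, out of 7329. The smallest adjusted p of these 14 genes over the 3 comparisons was 0.115, for *Net1* in SH (edgeR).

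Genes of other cell types were taken from the same libraries, and r is that of the mean standardized level of a list, in which each gene counts equally, with that of the markers. Oligodendrocyte genes, which mark white matter, had r = 0.785 over the 14 libraries and 0.240 over the 11 (0.845 and 0.517 by the log2 of the sums), and were 1.66-fold higher in the 3 high libraries than in the others. Their summed normalized count was 71000 to 105908 in the controls, 81631 to 185791 in IH, with the highest in IH replicate 5, and 81052 to 141102 in SH. Of 7 tested, 1 (*Ermn*, a myelin protein) rose, against the 6.08% and 10.2% of all tested genes given above, in both IH (0.73, SE 0.23, edgeR, adjusted p = 0.0495) and SH (0.77, SE 0.23, edgeR, adjusted p = 0.0255). The fold change against the controls was above 0 for 6 of 7 in IH and for 7 of 7 in SH, with medians of 0.36 and 0.38. Thalamus genes had r = 0.441 over the 14 libraries and 0.052 over the 11 (0.661 and 0.342 by the sums). Their sum was high in IH replicate 5 (3242) and SH replicate 5 (3196) but not in SH replicate 4 (2088), and was 2739 in control replicate 3. The part of the oligodendrocyte and thalamus genes in the marker values was not tested.

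Hilar mossy cell genes had r = -0.687 with the markers and subiculum and deep cortex genes -0.629, with mean sums in the 3 high libraries of 0.798 and 0.793 times those of the other 11. The mossy cell sum was low in SH replicates 4 and 5 (728 and 876) but not in IH replicate 5 (1212), and was 858 and 911 in IH replicates 2 and 4. Its largest part was *Calb2*, with mean normalized counts of 848 in the controls, 694 in IH and 626 in SH. *Calb2* is also on the list of immature granule cell genes, and *Drd2*, another mossy cell gene here, is also on the striatum list. Of 5 mossy cell genes *Csf2rb2*, a cytokine receptor chain, fell in both IH (-0.70) and SH (-0.74) (edgeR, adjusted p = 0.0118 and 0.00582), while 3 of the 5 had fold changes above 0 and the median of the list was 0.19 for IH and 0.35 for SH. Over all tested genes, 4.85% and 10.5% were called lower. CA1 genes had r = -0.173 by standardized level, and -0.474 over the 14 libraries and -0.536 over the 11 by the log2 of their sum. Their median log2 fold change was -0.24 for IH and -0.22 for SH, with 3 of 7 genes above 0 in each and 0 called. CA3 genes had r = -0.016 by standardized level, and -0.215 over the 14 and 0.225 over the 11 by the log2 of their sum. CA2 genes had r = 0.660 by standardized level but -0.216 by the log2 of their sum, which the abundant genes set, and genes of immature granule cells and progenitors had 0.512 and -0.181, so the measures differ in sign. Of 6 CA3 genes *St18* rose in both IH (0.27) and SH (0.31) (edgeR, adjusted p = 0.0463 and 0.0166), against 6.08% and 10.2% of all tested genes called higher. It was the only one of the 6 with a fold change above 0 in SH, where the median of the list was -0.048, and 5 of 6 were above 0 in IH, with a median of 0.11. Interneuron genes had r = -0.453 and striatum genes 0.554. In each of these lists 1 of 6 genes tested rose in SH, *Gad1*, an enzyme of GABA synthesis (0.30, edgeR, adjusted p = 0.00728), and *Pde10a*, a phosphodiesterase (0.36, edgeR, adjusted p = 0.00468), against 10.2% of all tested genes. In SH the fold change was above 0 for 3 of 6 interneuron genes, with a median of -0.038. It was above 0 for 5 of 6 striatum genes, with a median of 0.22. *Gfap*, the only 1 of 7 astrocyte genes tested, had r = 0.488. The 2 of 6 microglia genes tested had r = 0.121 by standardized level and -0.011 by sum, and both fell in SH, *Csf1r*, a growth factor receptor, by 0.22 and *C1qa*, a complement subunit, by 0.44 (edgeR, adjusted p = 0.0467 and 0.0290), against 10.5% of all tested genes. Endothelial genes had -0.162 by standardized level, 0.095 by sum and -0.806 by standardized level over the 10 IH and SH libraries. Of 6 endothelial genes, 2 rose in SH against 10.2% of all tested genes, *Slco1a4*, a transporter of the blood-brain barrier (0.40, edgeR, adjusted p = 0.00119), and *Flt1*, a receptor of vascular endothelial growth factor (0.22, edgeR, adjusted p = 0.0245). In IH 1 rose against 6.08%, *Ly6c1* (0.46, edgeR, adjusted p = 0.0270), and *Slco1a4* was lower in IH than in SH (-0.40, edgeR, adjusted p = 0.00444), against 0.899% of all tested genes. Choroid plexus genes had r = 0.041 and ranged from 4086 to 125502 normalized counts over the libraries. Activity-induced genes had r = -0.158 over the 14 libraries and 0.697 over the 10 IH and SH libraries. Of 12, 9 fell in IH and 8 in SH, against 4.85% and 10.5% of all tested genes, and 1 (*Homer1*, a postsynaptic scaffold) rose in both (0.34 and 0.37, edgeR, adjusted p = 0.0105 and 0.00379).

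**Figure D5:**
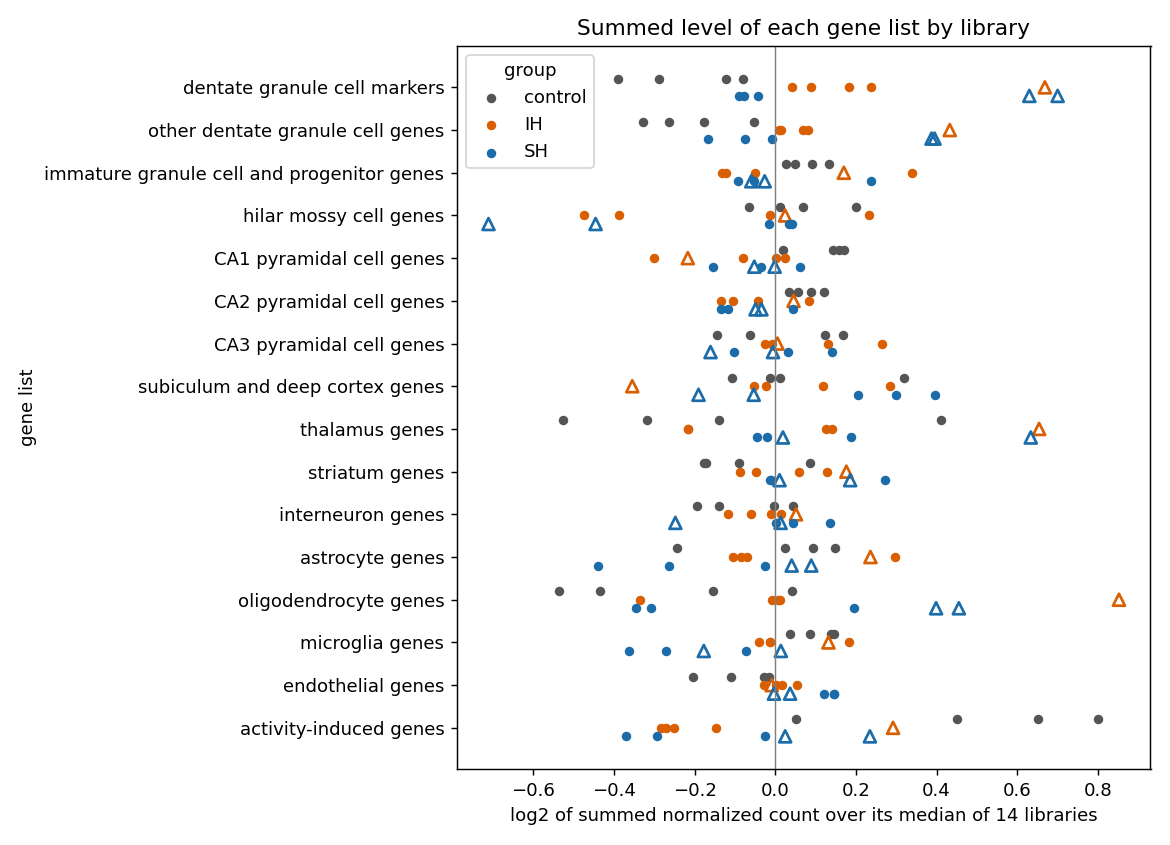
Summed normalized count of each gene list (y axis) in each library, as log2 over its median of the 14 libraries (x axis), for control, IH and SH. Open triangles are IH replicate 5 and SH replicates 4 and 5, which lie at 0.63 to 0.70 for the markers and to the right for other dentate and oligodendrocyte genes; choroid plexus genes, with their 30.7-fold range, are left out.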

How the data were processed

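Poly(A) RNA was sequenced in 14 hippocampus libraries (4 control, 5 IH, 5 SH). The submitters' notes name bcl2fastq 2.19, FastQC, fastp 0.23.4, HISAT2 2.2.1, StringTie 2.2.1 and GRCm39. The authors deposited estimated counts of reads per gene from StringTie without normalization between samples, for 7756 genes that they had filtered for protein-coding genes, low counts and a difference from the control group. The values of 10 genes had decimals and were rounded.

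All groups were fitted together in edgeR 4.0.16 (quasi-likelihood, TMM factors, run in R 4.3.3). The 7338 genes whose mean count reached 40 in each group were tested and Benjamini-Hochberg adjusted together, at a threshold of 0.05. Log2 levels used a pseudocount of 1. On simulated data of 7338 genes, 90.5% of 200 changed genes were recovered, with 5 false calls. Correlations used 100000 permutations. The members and gene lists were chosen with earlier results of these data known. All members were named with their values; from each other list at most 4 genes could be named, by adjusted p, and the 8 highest and 4 lowest correlations with the members' mean, plus up to 4 within groups, gave the genes most like them. Alternatives were DESeq2 1.42.0, other scalings and filters, a fit of the 2 groups compared, the replicate block, GC content and length trends removed by loess (span 0.5, symbols matched to GENCODE directly for 7707 genes and through synonyms for 16), and each library left out. No libraries were duplicates (chi-square per degree of freedom at least 8.96 over 26 pairs within groups).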

Additional observations from a re-analysis of the deposited data

Results flagged for a closer look

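The normalized count of *Dsp* in IH replicate 5 was 2720, while the other 4 IH libraries lay between 1015 and 1452. The sum of the 9 markers in the same library was 16448, against 10659 to 12193 in the other 4. Both were flagged because 1 library stood far from the others of its group. They are not separate events, since *Dsp* is part of the sum and both come from 1 library. Of 30 groups examined, 2 were flagged, and chance flags about 1 in 20 groups, or 1.5 of 30. SH replicates 4 and 5, which are as high, were not flagged, because each is the other's neighbor.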

How the results depend on the processing

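*Prox1* in SH vs. control passed the threshold under each of its 23 alternatives and in IH vs. control under 21 of them. Among these alternatives is the fit without the 3 libraries with the highest sum of markers. That sum holds *Prox1*, so this fit is a description and not a test. With scaling by the 80th percentile, 1 marker was called in SH vs. control (*Prox1*). Leaving out 1 library at a time gave 0 to 3 markers called for IH and 1 to 4 for SH against the controls, and 0 between IH and SH. Over all genes it gave 386 to 979, 906 to 1743 and 88 to 178 calls. The low counts in IH vs. control were 408, 386 and 518 without control replicates 1, 2 and 4, and those in SH vs. control 906 and 979 without control replicates 1 and 2. In IH vs. SH all genes called were 93, 92, 114 and 92 without IH replicates 1 to 4, and 97, 92, 88 and 110 without SH replicates 2 to 5. Removing GC content and length trends left 401 and 472 calls against the controls, and gave log2 fold changes of -0.15 for *Tdo2* (IH vs. control), 0.17 for *Plk5* (SH vs. control) and -0.011 for *C1ql2* (IH vs. SH). In IH vs. SH, DESeq2 called 300 genes and the fit of only the 2 groups 64.

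Without the 3 libraries with the highest sum of markers, added after seeing the data, 897 genes were called in SH vs. control, and 32 between IH and SH, and 1 marker (*Plk5*) was under the threshold between IH and SH and also in SH vs. control (-0.57). *Plk5* is part of the sum that picked the libraries, so these are descriptions with no test. Over the 11 libraries the median correlation was 0.343. The log2 fold change was then -0.014 for *Tdo2* (IH vs. control), -0.16 for *C1ql2* and -0.46 for *Lct* (SH vs. control), and 0.045 for *Prox1*, 0.21 for *Dsp*, 0.15 for *Pdzd2* and 0.21 for *Npnt* (IH vs. SH). For *C1ql2* in SH vs. control, the 80th percentile gave -0.013 and filterByExpr -0.0035. With 1 library left out the sign of small fold changes turned: *Tdo2* in IH vs. control from -0.10 to 0.25, *C1ql2* in SH vs. control from -0.057 to 0.067, *Plk5* in SH vs. control from -0.30 to 0.019, *Dsp* in IH vs. SH from -0.39 to 0.13, *Pdzd2* in IH vs. SH from -0.12 to 0.10, *Npnt* in IH vs. SH from -0.12 to 0.10, *Lct* in IH vs. SH from -0.15 to 0.55. The causes were not tested.

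With the replicate number as a block, *Pdzd2* was also called in IH vs. control (0.40, adjusted p = 0.0296) and *Dsp* in SH vs. control (0.57, adjusted p = 0.0347), and *Sipa1l2* was not called in SH vs. control (0.22, adjusted p = 0.0628). *C1ql2* (SH vs. control, -0.060) and *Npnt* (IH vs. SH, 0.0035) turned sign. The numbers were not treated as pairs: the deviations of 13 same-numbered pairs correlated between -0.300 and 0.462, above 0.1 in 6. The counts of *Tdo2*, the lowest of the markers, were 96 to 215 reads.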
